A study of Mus musculus with 8 samples.

Results

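Of 79758 ATAC-seq sites in mouse regulatory T (Treg) cells, 515 opened in wild-type (WT) effector Treg cells and stood at a similar level in effector Treg cells that lack Pggt1b. They were chosen by 3 limits on the level of a group, in CPM, a site's counts scaled to the same library total, over the summed counts of its 2 libraries. The WT eTreg level had to be at least 4 CPM, the log2 ratio of WT eTreg over WT cTreg at least 1, and the log2 ratio of Pggt1b-deficient over WT eTreg within 0.5 of 0. Each ratio had 0.5 CPM added to both sides. The first 2 limits gave 3053 effector-opened sites, so the 515, here called kept sites, were 16.9% of them and 0.646% of all sites. Of the other effector-opened sites, 1780 (58.3%) were at least 2-fold lower without Pggt1b, called lost sites here, 724 lay between kept and lost, and 34 were higher by 0.5 or more.

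ATAC-seq uses a transposase that cuts DNA where chromatin is open, so counts at a site follow how accessible it is. Treg cells restrain immune responses. Central Treg (cTreg) cells are resting and recirculate through lymphoid organs, whereas effector Treg (eTreg) cells have been activated, carry more suppressive molecules and enter tissues, and sites that open in them often act as enhancers. Pggt1b encodes the catalytic part of the GGTase-I enzyme, which gives its substrate proteins a lipid tail that anchors them to membranes.

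The 8 libraries form 4 groups of 2: Pggt1b-deficient eTreg, Pggt1b-deficient cTreg, WT eTreg and WT cTreg cells. All were sorted from spleen and lymph nodes of mixed bone marrow chimeras, hosts in which marrow of more than 1 donor develops side by side. The labels used here do not give the deletion allele, the age of the animals, the gates, the markers that separated eTreg from cTreg cells, or if a group's 2 libraries are from different animals. The p-values thus rest on a spread that may be only technical. Pggt1b-deficient eTreg libraries held 2255214 and 1664702 counts, against 7153991 to 14974253 in the other 6. Sites could not be tied to genes, so the cell labels and the deletion were not checked against marker loci, and sites are named by position on mouse build mm9.

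The values that chose the kept sites are given as a description. Their median level was 7.98 and 7.21 CPM in the 2 Pggt1b-deficient eTreg libraries, 2.26 and 2.66 CPM in the Pggt1b-deficient cTreg libraries, 7.77 and 8.48 CPM in the WT eTreg libraries and 2.79 and 2.69 CPM in the WT cTreg libraries. Both genotypes thus showed a high eTreg and a low cTreg median. In bulk cells, fewer cells with an open site and less accessibility per cell cannot be told apart. The median log2 ratio of WT eTreg over WT cTreg was 1.34 and reached 3.26 at kept sites, against a median of 1.75 at lost sites. In these 2 contrasts, which chose the sites, edgeR called all 515 higher in WT eTreg than WT cTreg (13.8% of all tested sites were), and 7 lower and none higher in Pggt1b-deficient than WT eTreg (6.43% and 4.66% of all tested sites; adjusted p under 0.05). The log2 ratio of Pggt1b-deficient over WT eTreg had a median of -0.22 at kept sites, and 390 of the 515 were below 0. The kept sites therefore lay unevenly within the limits, with more sites near the lower edge.

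**Figure D1:**
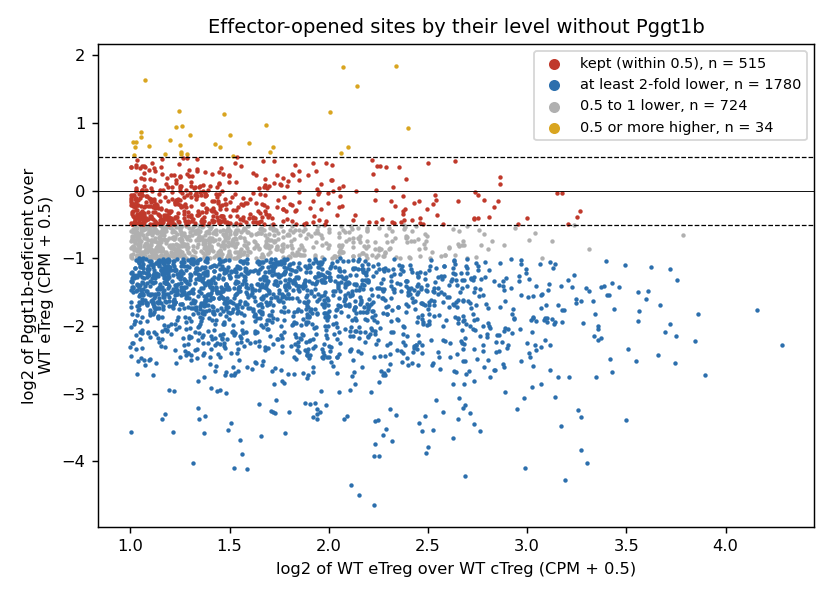
Each point is 1 of the 3053 effector-opened sites, with the log2 ratio of WT eTreg over WT cTreg on the x axis and that of Pggt1b-deficient over WT eTreg on the y axis, both from CPM + 0.5. Dashed lines mark the limits of 0.5 either side of 0. The 515 kept sites lie between the lines, the 1780 lost sites at -1 or lower, and there is no gap between the classes.

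No natural gap bounded the choice. At the lower limit, chr12:106713778-106714055 and chr18:61866919-61867506 were inside with log2 ratios of -0.498 and -0.498, while chr7:6237066-6237305 and chr10:67120979-67121186 were outside with -0.5001 and -0.5007. At the upper limit, chr7:3290109-3290569 and chr7:83378191-83378280 were inside with 0.491 and 0.485, while chr7:3452136-3452220 and chr9:120249169-120249649 were outside with 0.514 and 0.524. For the WT subset ratio, chr2:38365775-38365868 and chr6:30567994-30568067 were inside with 1.002 and 1.002, while chr9:69145960-69146033 and chr9:69162318-69162472 were outside with 0.995 and 0.995. For the WT eTreg level, chr1:173912486-173912626 and chr14:30997757-30997846 were inside with 4.05 CPM each, while chr2:32570032-32570102 and chr3:37191756-37191808 were outside with 3.97 CPM each.

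The depth of the Pggt1b-deficient eTreg libraries set how firmly a single site could be called kept. A kept site had a median of 28 counts over both of these libraries, with a range of 11 to 872, against a median of 210 counts over the WT eTreg libraries. The 95% Clopper-Pearson interval of the log2 ratio, with every 2 counts as 1 observation and for counting error only, had a median width of 1.71. It lay wholly above -1 at 235 of 515 kept sites (45.6%) and wholly within 0.5 of 0 at 17. At the other 280 the interval reached a 2-fold loss, so at this depth these could not be told from one. At the lost sites the upper bound reached above -0.5 at 731 of 1780 (41.1%).

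The 2 Pggt1b-deficient eTreg libraries did not place the same sites within the limits. Against the WT eTreg group, 393 kept sites were within 0.5 in replicate 1, 314 in replicate 2 and 211 in both. At 63 kept sites at least 1 of the 2 libraries was 2-fold or more below WT eTreg. Across the kept sites, log2(CPM + 0.5) of the 2 replicates correlated at r = 0.73 in Pggt1b-deficient eTreg, 0.894 in Pggt1b-deficient cTreg, 0.958 in WT eTreg and 0.939 in WT cTreg cells (n = 515 sites, which share libraries and are not independent replicates).

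**Figure D2:**
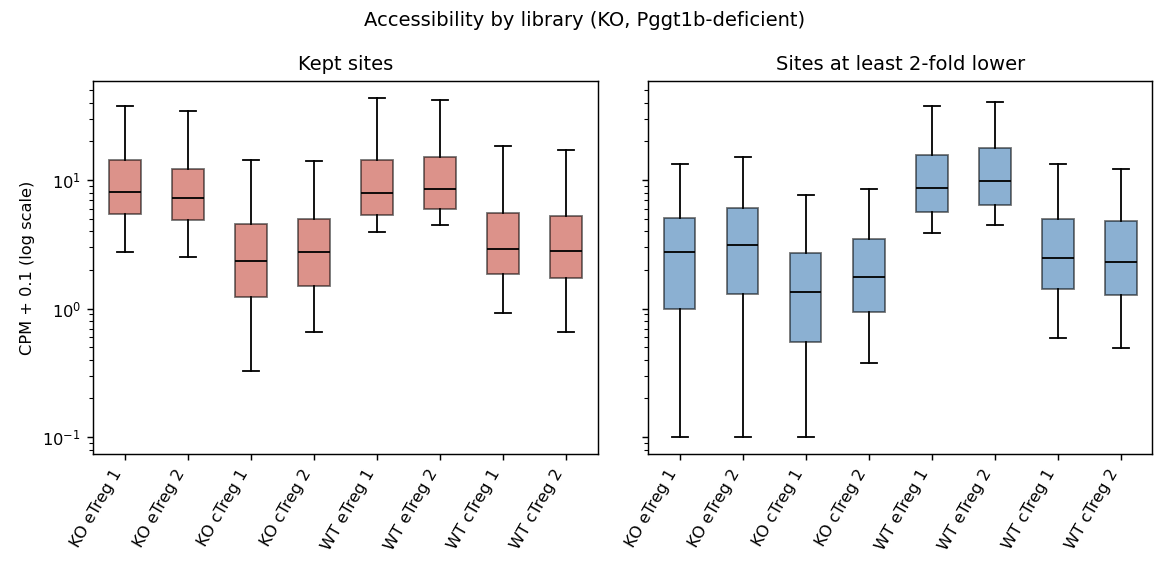
CPM + 0.1 on a log axis in each library for the 515 kept sites (left) and the 1780 lost sites (right); lines are medians, boxes run from the lower to the upper quartile and whiskers the 5th and 95th percentiles. KO is Pggt1b-deficient. The eTreg boxes of the kept sites are at a similar height in both genotypes, as the choice of sites requires, and the cTreg boxes of the lost sites are lower in Pggt1b-deficient than in WT libraries.

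To read the kept class in libraries that had not chosen it, the limits were applied to replicate 1 alone and the sites read in replicate 2, and the other way round. Sites chosen as kept in replicate 1 numbered 603, and in replicate 2 their median log2 ratio of Pggt1b-deficient over WT eTreg was -0.58. For sites chosen as lost in replicate 1 it was -1.41, and for all effector-opened sites of replicate 1 it was -1.12. In the other direction, 698 kept sites of replicate 2 had a median of -0.40 in replicate 1, against -1.32 for lost and -1.01 for all effector-opened sites. Kept sites thus stayed nearer to the WT eTreg level than lost sites in both directions, but with lower ratios than those that chose them.

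Membership of single sites carried over in part. Of the 603 sites kept in replicate 1, 238 (39.5%) were within 0.5 in replicate 2 and 179 (29.7%) were at least 2-fold lower. Of the 698 sites kept in replicate 2, 297 (42.6%) were within 0.5 in replicate 1 and 178 (25.5%) were at least 2-fold lower. Of all effector-opened sites, 19.9% and 24.5% were within 0.5 in the replicate not used, and 56.4% and 50.2% were at least 2-fold lower. All 3 limits were met in both replicates by 136 sites, the same sites in either direction, which is 22.6% of the first set and 19.5% of the second. Of all effector-opened sites 11.9% and 11.3% met them in the replicate not used, and of the lost sites 6.46% and 6.57%. The 515 kept sites had a median of 18 and 12 counts in the 2 Pggt1b-deficient eTreg libraries, and the part of this depth in the carry-over was not tested.

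**Figure D3:**
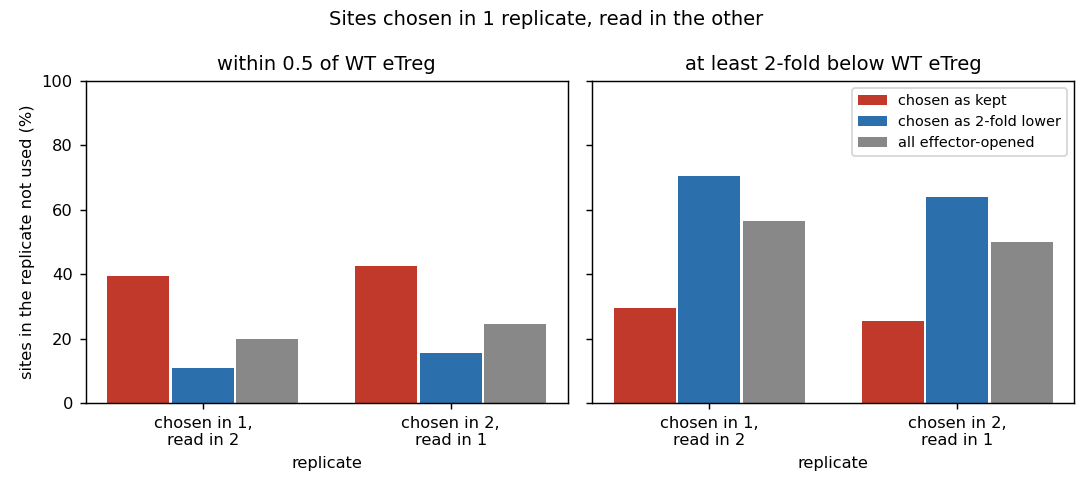
Percent of sites, read in the replicate that did not choose them, that were within 0.5 of the WT eTreg level on the log2 scale (left) or at least 2-fold below it (right). Red bars are sites chosen as kept, blue bars sites chosen as lost and grey bars all effector-opened sites. The red bars stand at 39.5% and 42.6% on the left and at 29.7% and 25.5% on the right.

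Summed over sites, the kept class held 0.626 ± 0.052% of counts in Pggt1b-deficient eTreg, 0.218 ± 0.011% in Pggt1b-deficient cTreg, 0.717 ± 0.025% in WT eTreg and 0.262 ± 0.011% in WT cTreg libraries (SD, n = 2 each). The gap between eTreg and cTreg in Pggt1b-deficient cells was 89.6% of the WT gap at kept sites and 19.99% at lost sites, a contrast that the choice of the 2 classes by the eTreg ratio fixes. With sites chosen in replicate 1 and read in replicate 2, the gap was 59.0% of the WT gap for kept and 24.6% for lost sites. Chosen in replicate 2 and read in replicate 1, it was 84.3% for kept and 31.9% for lost sites.

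The Pggt1b-deficient cTreg libraries took no part in the choice. Set against them, 351 of the 515 kept sites were higher in Pggt1b-deficient eTreg cells and none lower (edgeR quasi-likelihood test, adjusted p under 0.05), where 4.59% of all tested sites were called higher and 4.52% lower. All 515 were tested, and 440 had an unadjusted p under 0.05 in the same edgeR test, against 17913 of all 75352 tested sites. The median log2 fold change was 1.62 at kept sites and -0.06 over all tested sites. Because the choice held the Pggt1b-deficient eTreg libraries near a high WT eTreg level, these counts describe the kept sites and test nothing about them. Both eTreg libraries exceeded both cTreg libraries of Pggt1b-deficient cells at 458 kept sites (88.9%), against 19.8% of all sites. The count of called sites was 326 with DESeq2, and it was 210 or 228 when replicate 1 of the Pggt1b-deficient eTreg or cTreg libraries was left out. At lost sites, 357 of 1780 were called higher and 7 lower. By the interaction term, the subset difference itself was called higher without Pggt1b at 1 kept site and lower at 2 (edgeR quasi-likelihood test, adjusted p under 0.05). Of all tested sites, 0.957% and 0.555% were so called. The median interaction over the kept sites was 0.02. The interaction contains the eTreg ratio that the choice held within 0.5 of 0, so these values too describe the kept sites only.

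Among called kept sites with a mean of at least 20 counts over the compared libraries, the 4 with the largest such rise are described here. At these sites, picked by that rise and by the WT subset ratio, all 4 eTreg libraries exceeded all 4 cTreg libraries. The 213 bp site chr7:124271352-124271565 had 36.4 and 18.0 CPM in Pggt1b-deficient eTreg, 2.37 and 1.68 in Pggt1b-deficient cTreg, 19.0 and 24.4 in WT eTreg and 3.44 and 5.06 in WT cTreg libraries. At chr8:117501759-117502060 the values were 21.3 and 20.4 CPM in Pggt1b-deficient eTreg, 0.903 and 2.66 in Pggt1b-deficient cTreg, 13.4 and 16.8 in WT eTreg and 2.13 and 1.97 in WT cTreg libraries. In both sites the Pggt1b-deficient eTreg libraries spanned or exceeded the WT eTreg range. The log2 fold changes of Pggt1b-deficient eTreg over cTreg were 3.78 ± 0.34 and 3.62 ± 0.37 (SE), and those of chr7:91535082-91535385 and chr18:19682878-19683139 were 3.46 ± 0.29 and 3.31 ± 0.36.

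In cTreg cells, kept and lost sites differed in a measure that did not choose between them. The median log2 ratio of Pggt1b-deficient over WT cTreg was -0.18 at kept sites, with quartiles of -0.54 and 0.13, and -0.56 at lost sites, with quartiles of -0.91 and -0.23. Over the 37057 sites with at least 4 CPM in WT eTreg it was -0.03. In the single Pggt1b-deficient cTreg libraries the medians were -0.25 and -0.14 at kept sites and -0.72 and -0.45 at lost sites, so both libraries gave the same order. The difference of the medians, kept minus lost, was 0.38 on the log2 scale, and 0.31 to 0.47 when each cTreg library was left out in turn. With 2 libraries per group no exact test over libraries can pass 0.05.

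The order was also seen where the WT cTreg libraries had not chosen the sites. For sites chosen in replicate 1, the median log2 ratio of Pggt1b-deficient over WT cTreg in replicate 2 was -0.22 at kept and -0.40 at lost sites. For sites chosen in replicate 2, it was -0.38 at kept and -0.69 at lost sites in replicate 1. Kept and lost medians thus lay closer together in both directions than the 0.38 over both replicates, most so when read in replicate 2. The part of the choice of sites in the 0.38 was not tested. Within 4 ranges of WT cTreg level, the difference of kept minus lost was 0.35 to 0.46, within 4 ranges of the WT subset ratio 0.31 to 0.50, and within 4 ranges of width 0.32 to 0.43. Kept sites with under 1 CPM in WT cTreg had a median of 0.08 (n = 51), and kept sites with 4 CPM or more had one of -0.34 (n = 179).

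Along the range of effector-opened sites, the cTreg ratio was higher where the eTreg ratio was higher. Sites at -2 or lower in eTreg cells had a median of -0.60 in cTreg cells (n = 463), sites from -2 to -1 had -0.55 (n = 1317) and sites from -1 to -0.5 had -0.41 (n = 724). Kept sites below 0 had -0.24 (n = 390), and kept sites at 0 or above had 0.00 (n = 125). The 34 sites that were higher by 0.5 or more had a median of 0.26. Across the 3053 sites the 2 log2 ratios had Pearson's r = 0.277 and a Spearman rank coefficient of 0.278. The ratios share no library, but the sites were chosen by WT eTreg over WT cTreg, which ties their denominators together. The part of this choice in the correlation was not tested. Sites are not independent replicates, and all share the same 8 libraries.

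**Figure D4:**
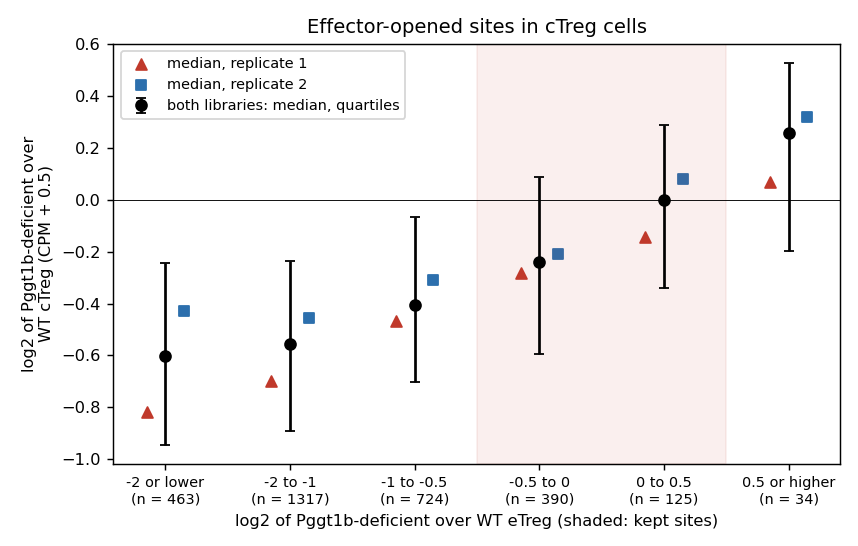
Log2 ratio of Pggt1b-deficient over WT cTreg cells for effector-opened sites in 6 ranges of the log2 ratio of Pggt1b-deficient over WT eTreg cells. Black points and bars are medians and quartiles over sites, red triangles and blue squares the medians with Pggt1b-deficient cTreg replicate 1 and 2 alone, and shading marks the kept sites. The medians go from -0.60 in the lowest range to 0.26 in the highest.

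At single sites, few kept sites were called as changed in Pggt1b-deficient against WT cTreg cells. Of the 515, 5 rose and 27 fell (edgeR quasi-likelihood test, adjusted p under 0.05), or 0.971% and 5.24%, where 0.53% and 1.69% of all tested sites were called. Of 1780 lost sites none rose and 274 fell, or 15.4%. Both Pggt1b-deficient cTreg libraries lay below both WT cTreg libraries at 198 kept sites (38.4%) and above them at 69 (13.4%), against 26.4% and 20.6% of all sites. The count of called kept sites was 17 with DESeq2, which gave an adjusted p to 264 of them. Leaving out replicate 1 of the Pggt1b-deficient cTreg libraries gave 9, and leaving out WT cTreg replicate 1 or 2 gave 8 or 16.

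The most accessible kept sites were among those that fell in cTreg cells. The site with the highest WT eTreg level, the 1267 bp interval chr16:58408173-58409440, had 237 and 203 CPM in Pggt1b-deficient eTreg, 45.2 and 63.6 in Pggt1b-deficient cTreg, 240.0 and 234 in WT eTreg and 109 and 100.2 in WT cTreg libraries. The Pggt1b-deficient cTreg libraries were thus the lowest of all 8, while the eTreg libraries overlapped in range only at their edges, 203 to 237 CPM without Pggt1b against 234 to 240.0 CPM in WT. The log2 fold change in cTreg cells was -0.96 ± 0.10 (SE, edgeR adjusted p = 5.73e-08). The counting interval of the eTreg log2 ratio ran from -0.24 to 0.05.

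Of the 6 kept sites with the highest WT eTreg level, 5 fell in Pggt1b-deficient cTreg cells. The SE of the cTreg change was 0.10 to 0.17 at these 6 sites, against a median of 0.39 over all kept sites. Smaller falls could thus be called here than at a typical kept site. At chr5:151025953-151026547, the values were 62.1 and 65.5 CPM in Pggt1b-deficient eTreg, 11.97 and 19.8 in Pggt1b-deficient cTreg, 85.2 and 88.5 in WT eTreg and 32.5 and 30.2 in WT cTreg libraries, and the cTreg log2 fold change was -1.01 ± 0.15 (SE, edgeR adjusted p = 2.98e-05). At chr8:41508685-41510024 they were 112 and 63.7 CPM in Pggt1b-deficient eTreg, 21.0 and 17.1 in Pggt1b-deficient cTreg, 104 and 91.0 in WT eTreg and 44.3 and 29.9 in WT cTreg libraries, and the change was -0.95 ± 0.17 (edgeR adjusted p = 0.000522). In both, each Pggt1b-deficient cTreg library was below each WT cTreg library. The falls at chr18:61866919-61867506 and chr2:135716675-135717219 were -0.74 ± 0.15 and -0.51 ± 0.10 (edgeR adjusted p = 0.00207 and 0.00262). The sixth, chr2:135484165-135485882, which at 1717 bp was the widest kept site, had -0.33 ± 0.11 and did not pass (edgeR adjusted p = 0.103). Of the 5 calls, those of chr16:58408173-58409440 and chr5:151025953-151026547 held without any 1 cTreg library. Without WT cTreg replicate 1 the edgeR adjusted p was 0.129 at chr8:41508685-41510024, 0.0625 at chr18:61866919-61867506 and 0.14 at chr2:135716675-135717219. The second also lost its call without Pggt1b-deficient cTreg replicate 1 (0.349), the third without replicate 2 (0.137), and the first with DESeq2 (0.167).

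**Figure D5:**
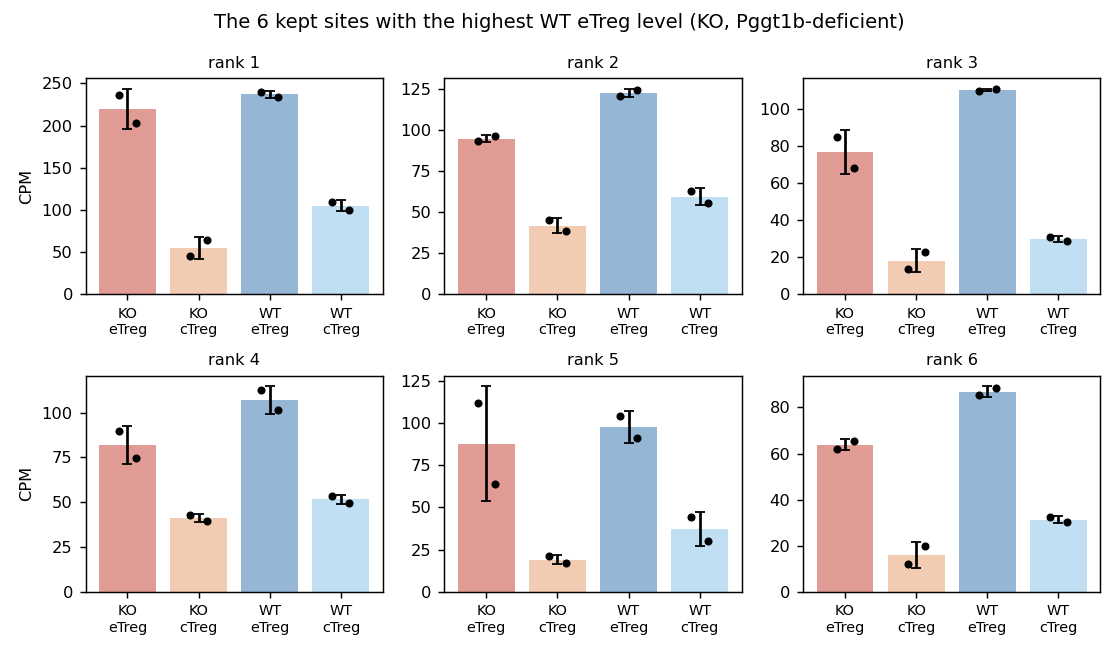
CPM in each group at the 6 kept sites with the highest WT eTreg level, ranked by that level; points are libraries, bars means and error bars the SD of 2 libraries. KO is Pggt1b-deficient. The Pggt1b-deficient cTreg bar is the lowest of the 4 in every panel, and at rank 1 its libraries stand at 45.2 and 63.6 CPM against 109 and 100.2 CPM in WT cTreg.

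Under the same limit on counts, which 23 of the 27 falls met, the 4 largest falls in cTreg cells left 0.678 to 2.37 CPM in the Pggt1b-deficient cTreg libraries. At chr9:50841360-50841530, 7.54 and 7.21 CPM were measured in Pggt1b-deficient eTreg, 0.791 and 1.40 in Pggt1b-deficient cTreg, 8.04 and 11.4 in WT eTreg and 3.44 and 4.82 in WT cTreg libraries. The Pggt1b-deficient cTreg libraries were the lowest and the fall was -1.95 ± 0.42 on the log2 scale (edgeR adjusted p = 0.00594). The falls at chr5:113567463-113567801, chr1:83073776-83074093 and chr4:16029291-16029456 were -1.67 ± 0.44, -1.64 ± 0.45 and -1.62 ± 0.36 (edgeR adjusted p = 0.0322, 0.0379 and 0.00868). Each of these 4 lost the call when 1 of the cTreg libraries was left out. The edgeR adjusted p was then 0.215 (Pggt1b-deficient replicate 1) or 0.162 (WT replicate 2) at chr9:50841360-50841530, and 0.217 (Pggt1b-deficient replicate 2) or 0.156 (WT replicate 1) at chr4:16029291-16029456. At chr5:113567463-113567801 it was 0.466 (Pggt1b-deficient replicate 1), 0.152 or 0.255 (WT replicates 1 and 2). At chr1:83073776-83074093 it was 0.129 to 0.337 without any 1 of the 4, and 0.0616 with DESeq2.

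At 4 of the 5 kept sites that rose in Pggt1b-deficient cTreg cells, named by size, the Pggt1b-deficient cTreg libraries overlapped the range of the 4 eTreg libraries. The 57 bp site chr18:42186011-42186068 had 3.55 and 6.01 CPM in Pggt1b-deficient eTreg, 5.53 and 6.71 in Pggt1b-deficient cTreg, 3.31 and 5.61 in WT eTreg and 0.984 and 0.553 in WT cTreg libraries. The WT cTreg libraries stood apart from the other 6, and the log2 fold change in cTreg cells was 2.97 ± 0.43 (edgeR adjusted p = 2.98e-05). At chr7:89319628-89319804 the values were 7.09 and 8.41 CPM in Pggt1b-deficient eTreg, 11.1 and 9.64 in Pggt1b-deficient cTreg, 10.5 and 7.95 in WT eTreg and 4.67 and 3.55 in WT cTreg libraries. Here too only the WT cTreg libraries were low, and the cTreg change was 1.33 ± 0.27 on the log2 scale (SE, edgeR adjusted p = 0.00287), which was not called without Pggt1b-deficient cTreg replicate 1 (0.091) or WT cTreg replicate 2 (0.138). The rises at chr7:133618981-133619056 and chr8:122335954-122336083 were 1.28 ± 0.35 and 1.11 ± 0.27 (edgeR adjusted p = 0.0418 and 0.0156). The first lost its call without any 1 of the 4 cTreg libraries, with an adjusted p of 0.132 to 0.486, and the second without Pggt1b-deficient cTreg replicate 1 (0.218) or WT cTreg replicate 1 (0.372). Since the choice of sites favours low WT cTreg counts, rises of this kind are described only.

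The steepest WT subset differences among kept sites with at least 20 counts in the Pggt1b-deficient eTreg libraries came from sites with few counts in cTreg cells. The 145 bp site chr15:51562486-51562631 had 8.87 and 4.81 CPM in Pggt1b-deficient eTreg, 0.452 and 0.559 in Pggt1b-deficient cTreg, 6.88 and 7.61 in WT eTreg and 0.164 and 0.553 in WT cTreg libraries. At chr5:149972068-149972392 the values were 13.7 and 15.02 CPM in Pggt1b-deficient eTreg, 0.903 and 0.978 in Pggt1b-deficient cTreg, 19.1 and 18.6 in WT eTreg and 1.80 and 1.26 in WT cTreg libraries. All 4 eTreg libraries exceeded all 4 cTreg libraries at both sites, and at the other 6 sites of this kind too, which are chr10:76264920-76265125, chr12:106713778-106714055, chr19:6297705-6297823, chr8:123711645-123711897, chr4:102525562-102525627 and chr8:10480983-10481116. Only sites where both Pggt1b-deficient eTreg libraries exceeded both WT cTreg libraries were listed, and the WT subset ratio chose them too. The separation from the WT cTreg libraries was thus largely required. The Pggt1b-deficient cTreg libraries, which took no part in the choice, ran from 0.226 to 1.40 CPM over the 8 sites. None of the 8 was called in Pggt1b-deficient against WT cTreg cells (edgeR adjusted p = 0.441 to 0.874). The 2 Pggt1b-deficient eTreg libraries had 9.31 and 3.00 CPM at chr8:123711645-123711897 and 11.5 and 4.205 CPM at chr4:102525562-102525627. The rises of Pggt1b-deficient eTreg over cTreg at these 2 sites, 2.38 ± 0.53 and 3.12 ± 0.55 on the log2 scale, were not called without Pggt1b-deficient eTreg replicate 1 (edgeR adjusted p = 0.396 and 0.116).

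The median width of kept sites was 166 bp, with quartiles of 108.5 and 245 bp. It was 162 bp at lost sites, 225 bp at all sites with at least 4 CPM in WT eTreg and 104 bp over all 79758 sites. The kept share of effector-opened sites was 16.1% for widths under 100 bp, 18.2% from 100 to 200 bp, 15.4% from 200 to 400 bp and 18.0% above. By the WT subset difference, itself part of the choice, it was 25.5%, 21.1%, 13.9% and 8.25% in 4 ranges from the smallest to the largest. The median gap to the nearest site of any kind was 806 bp for kept, 1298 bp for lost and 1129 bp for all effector-opened sites. It was shorter, 442 bp, for sites with at least 4 CPM in WT eTreg and 547 bp over all sites.

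The neighbours of kept sites were counted within 10 kb. Another kept site was within 10 kb of 60 of 515 kept sites (11.7%), and a kept site of 92 of 1780 lost sites (5.17%). This was so for 6.65% of all effector-opened sites and 2.05% of all sites. A lost site was within 10 kb of 77 kept sites (14.95%) and, besides the site itself, of 477 lost sites (26.8%). It was so for 22.3% of all effector-opened sites and 4.99% of all sites. Both kinds stood within 10 kb of 10 kept sites. Near sites can be parts of 1 open region and are not independent, and no test was made.

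In windows of 200 kb, 384 held 1 kept site, 50 held 2 and 9 held 3 to 5. At 57 to 57.2 Mb of chromosome 18 there were 13 sites, of which 5 were effector-opened and all 5 kept. Its strongest, chr18:57048488-57048787, had 34.1 and 28.8 CPM in Pggt1b-deficient eTreg, 7.45 and 8.11 in Pggt1b-deficient cTreg, 43.1 and 34.9 in WT eTreg and 15.7 and 13.1 in WT cTreg libraries. It fell in Pggt1b-deficient cTreg cells by 0.90 ± 0.19 on the log2 scale (edgeR adjusted p = 0.00627), as did chr18:57046296-57046447, 2041 bp away, by 1.17 ± 0.30 (edgeR adjusted p = 0.0249). Neither call held without Pggt1b-deficient cTreg replicate 1 (edgeR adjusted p = 0.14 and 0.249) or WT cTreg replicate 1 (0.17 and 0.165), and the second also failed without replicate 2 of either (0.105 and 0.183).

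The other 2 windows with most kept sites held 4 each. At 17.6 to 17.8 Mb of chromosome 2, 4 of 7 effector-opened sites were kept and 2 lost. Its strongest kept site, chr2:17624507-17625045, had 47.9 and 48.7 CPM in Pggt1b-deficient eTreg, 14.6 and 16.9 in Pggt1b-deficient cTreg, 44.4 and 48.1 in WT eTreg and 16.8 and 19.2 in WT cTreg libraries. The eTreg libraries overlapped between genotypes, the cTreg log2 fold change was -0.20 ± 0.15 (edgeR adjusted p = 0.614), and the nearby chr2:17619820-17620189 had -0.71 ± 0.24 (edgeR adjusted p = 0.114). At 147 to 147.2 Mb of chromosome 7, all 4 effector-opened sites were kept. There chr7:147129629-147129937 had 12.4 and 16.8 CPM in Pggt1b-deficient eTreg, 7.23 and 6.15 in Pggt1b-deficient cTreg, 17.0 and 16.0 in WT eTreg and 7.30 and 8.45 in WT cTreg libraries, and chr7:147178331-147178522 had a cTreg log2 fold change of -0.13 ± 0.30 (edgeR adjusted p = 0.912), which was 0.08 without Pggt1b-deficient cTreg replicate 1 or WT cTreg replicate 2.

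Kept sites were found on each of the autosomes 1 to 19 and on X, and 1 lay on an unplaced contig. Their share of effector-opened sites was lowest on chromosome 17 (12.6%, 11 of 87) and highest on chromosome 7 (24.7%, 47 of 190), followed by chromosome 18 (21.5%, 29 of 135) and chromosome 15 (21.3%, 23 of 108). Chromosome 18, which also carries Pggt1b, held 5.63% of kept sites, 4.55% of lost sites, 4.42% of effector-opened sites and 3.35% of all sites. These shares are descriptions with no test.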

How the data were processed

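The deposited values are raw counts per peak interval in 1 table of 79758 intervals, 1 column per library. The build was mm9, and the tools named by the authors were MACS2 2.1.1, bedtools, SAMtools, Picard 2.9.4 and Trimmomatic 0.36, all per the submitters' processing notes. Not given in the sources used here: aligner, shift of read ends, peak threshold, pooling and the unit counted. Of counts from 1 to 10, 66.1% to 77.4% per library were even, so intervals take every 2 counts as 1 observation and cover counting error only. Whether starts count from 0 or 1 is not stated.

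CPM used column totals. Counts were tested with edgeR 4.0.16 in R 4.3.3: filterByExpr (75352 sites, all 515 kept sites among them), TMM scaling, 1 mean per group over all 8 libraries, quasi-likelihood F tests and Benjamini-Hochberg adjustment over all tested sites. SE is |log2 fold change| divided by √F. DESeq2 1.42.0, other scaling, no filter, the compared libraries alone, a replicate block and leaving out libraries were alternatives. Counts were simulated for 75352 sites, with 100 sites changed 2-fold and 100 changed 4-fold in each comparison. For Pggt1b-deficient eTreg against cTreg, edgeR recovered 29% of the 2-fold and 85% of the 4-fold changes, with 24 false calls. These false calls were not few beside the calls recovered. For Pggt1b-deficient against WT cTreg it recovered 61% and 100%, with 0 false calls.

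Members, limits and lists were chosen with earlier results of these data known. Named sites are the 8 with the steepest WT subset difference (at least 20 counts over the Pggt1b-deficient eTreg libraries, both above both WT cTreg libraries), the 6 with the highest WT eTreg level, the 4 largest called rises and falls in Pggt1b-deficient cTreg, the 4 largest called rises in Pggt1b-deficient eTreg against cTreg (a mean count of at least 20 for called sites), the 3 widest, the 2 strongest in each of the 3 windows of 200 kb with most kept sites, and 2 sites either side of each limit. The gene and promoter tables at hand use another build, so genes, motifs and sequences of the sites were not analysed here.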

Additional observations from a re-analysis of the deposited data

Results flagged for a closer look

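3 of the named kept sites had a subset difference (eTreg over cTreg) that differed between Pggt1b-deficient and WT cells by the interaction term of the edgeR quasi-likelihood model, where 0.957% of all tested sites were called higher and 0.555% lower. At chr16:58408173-58409440 the interaction was 0.82 ± 0.14 on the log2 scale (SE, edgeR adjusted p = 0.00095), with a log2 fold change of eTreg over cTreg of 2.05 ± 0.11 in Pggt1b-deficient cells against 1.23 ± 0.09 in WT cells. At chr18:42186011-42186068 it was -2.97 ± 0.63 (edgeR adjusted p = 0.00707), with -0.38 ± 0.47 in Pggt1b-deficient against 2.59 ± 0.43 in WT cells. At chr7:89319628-89319804 it was -1.63 ± 0.43 (edgeR adjusted p = 0.0408), with -0.42 ± 0.35 in Pggt1b-deficient against 1.21 ± 0.26 in WT cells. These were the called interactions among all 515 kept sites, 1 higher and 2 lower. At each, the eTreg level was similar in both genotypes by the choice of sites and the cTreg level was not. The interaction contains both ratios that chose the sites, WT eTreg over WT cTreg and Pggt1b-deficient over WT eTreg. It was not recomputed under the alternatives.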

How the results depend on the processing

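The number of kept sites followed the limits: 902 with a WT eTreg limit of 2 CPM, 259 with 8 CPM, 179 with a WT subset limit of 1.5, 230 with a tolerance of 0.25 and 1266 with a tolerance of 1. It was 569 with 0.1 CPM added and 550 with TMM factors, which shared 463 and 467 sites with the 515. Leaving out 1 library in turn gave 539 to 623 sites, of which 314 to 467 were shared, fewest without Pggt1b-deficient eTreg replicate 1.

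For Pggt1b-deficient eTreg against cTreg, 6870 sites were called in all, 3174 with the compared libraries only, and 3161 to 7317 with 1 library left out. Kept sites called numbered 351, and 210 to 332 with 1 library left out; their median log2 fold change of 1.62 was then 1.49 to 1.78. For Pggt1b-deficient against WT cTreg, 1669 sites were called in all, 3480 with the compared libraries only, 867 with DESeq2, and 378 to 833 with 1 library left out. Kept sites called numbered 32, 17 with DESeq2, and 8 to 22 with 1 library left out; their median of -0.23 was -0.30 to -0.17. DESeq2 called 326 kept sites in the first comparison. Where an arm was left with 1 library, that library was taken to vary like the others. The difference in cTreg medians of kept minus lost sites, 0.38, was 0.50 within sites with a WT subset ratio of 2 or more. It was 0.29 to 0.49 with other added constants. It was smaller than 0.38 in both directions when sites were chosen in 1 replicate and read in the other. The added constants and the ranges of subset ratio, level and width were chosen after the data were seen. The causes were not tested.

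The labels used here do not say if replicate numbers pair the libraries. Deviations of same-numbered libraries from their group means correlated at -0.013 to 0.063 over all sites. With 2 libraries per group this cannot tell if same-numbered libraries share an animal or a sort. With a replicate block, 344 and 32 kept sites and 6341 and 1569 sites in all were called in the 2 comparisons. Of 305 alternatives at the named sites, 37 ended a call, 32 of them for Pggt1b-deficient against WT cTreg. 2 reversed a direction, both at the uncalled chr7:147178331-147178522, whose cTreg log2 fold change of -0.13 ran from -0.34 to 0.081 with 1 library left out and was 0.08 without WT replicate 2. Kept sites had a median of 18 and 12 counts in the Pggt1b-deficient eTreg libraries, which limits the precision of each eTreg ratio.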
